A study of Mus musculus with 5 samples.

Results

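Goblet cells of the mouse colon were compared between tumors and normal tissue, with the cells chosen by their measured RNA of 4 mucus genes, Muc2, Fcgbp, Zg16 and Clca1. A barcode was kept when it had at least 500 genes and at most 15% mitochondrial transcripts. A kept cell passed the goblet gate when the 4 genes together had at least 5 unique molecular identifiers (UMIs, 1 per captured transcript) and at least 15 UMIs per 10000 UMIs of the cell, and when Ptprc, Tyrobp, Pecam1 and Dcn, which mark immune, endothelial and stromal cells, together had under 3 UMIs. Of 8491 kept cells, 2122 passed: 2040 of 7396 in 4 tumor libraries and 82 of 1095 in 1 normal colon library. They are called gated cells here, because in the tumor libraries the gate also reached cells that carry markers of other types, as shown next.

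The tumor mice had colon tumors raised with azoxymethane, a mutagen, and dextran sodium sulfate, an irritant that inflames the colon (AOM/DSS), and had received 5-fluorouracil and Irinotecan, a chemotherapy pair. There were 2 libraries labelled day 1 of treatment, 1 labelled day 3 and 1 labelled day 6, and the sources differ on whether days run from the start of treatment or from its last cycle. The normal library came from untreated colon by a preparation labelled as a fibroblast dissociation, in which the crypts were loosened and shaken off before the remaining stroma was digested, so its gated cells are those left behind. Tumors of the distal colon were instead digested and their retained epithelial fragments were made into single cells. Every library is labelled wild type, and per the study's methods the mice were C57BL/6J or mixed C57BL/6J;129 and 6 to 12 weeks old at the start, with no background given for single mice. All were inDrop libraries, a droplet method that counts transcript ends with UMIs. The first day 1 library and the day 3 library had a single index and the second day 1 library, the day 6 library and the normal library had a dual index, a difference in library structure that also went with the sequencing machine. Tumor, chemotherapy and preparation all separate the 4 tumor libraries from the 1 normal library and cannot be told apart. A test of 4 libraries against 1 assumes that the normal library would vary like the tumor libraries, and its p-values measure the spread between these libraries only.

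Goblet cells are secretory cells of the intestinal epithelium that build and release the mucus barrier. The transcription factors Atoh1 and Spdef drive their formation. Their mucin Muc2 is folded in the endoplasmic reticulum with the help of Agr2, given sugar chains in the Golgi and stored in granules together with Fcgbp, Clca1, Zg16, Tff3 and small antimicrobial proteins.

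The gated cells held 4026728, 1918035, 1849634 and 2631057 UMIs in the tumor libraries of day 1 replicate 1, day 1 replicate 2, day 3 and day 6, and 799888 UMIs in the normal library, and all values below are given in this order of libraries. Their median depth was 2913, 2616, 3050 and 2114 UMIs per cell against 6236.5 in the normal library. They made up 76.6%, 13.7%, 33.2% and 23.6% of kept tumor cells and 7.49% of kept normal cells (95% exact intervals 73.4 to 79.6%, 12.4 to 15.2%, 30.7 to 35.7%, 22.0 to 25.2% and 6.00 to 9.21%, which cover counting error only). The share in day 1 replicate 1 lay far above the others. Between 4 and 41 cell barcodes were shared by any pair of libraries, with at most 4 of them gated in both.

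The 4 gate genes also appeared in cells that the gate should not hold. Among cells with 3 or more UMIs of the immune, endothelial and stromal markers, 112 of 119 (94.1%), 115 of 593 (19.4%), 33 of 86 (38.4%) and 117 of 342 (34.2%) in the tumor libraries reached the UMI count and the level of the goblet gate, against 13 of 481 (2.70%) in the normal library. At 10 or more of these UMIs and 50 per 10000, the counts were 46 (38.7%), 9 (1.52%), 6 (6.98%), 6 (1.75%) and, in the normal library, 7 (1.46%). In day 1 replicate 1, 33.2% of all kept cells passed the strict gate described below, which uses this level. The other cells thus reached it there at a similar rate. At a level of at least 200 per 10000, the counts were 4 (3.36%), 3 (0.506%), 1 (1.16%), 1 (0.292%) and 4 (0.832%). In day 1 replicate 1 the mean level of Muc2 in these other cells was 110% of that in gated cells and that of Tff3 was 103%. The corresponding shares for Muc2 in the other tumor libraries were 13.8%, 54.1% and 18.4%, and 3.42% in the normal library. The median depth of these other cells in day 1 replicate 1 was 3761 UMIs. Goblet RNA at this level in other cells lies beside every tumor value given here, and beyond the narrower gates its part in the results was not tested.

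**Figure D1:**
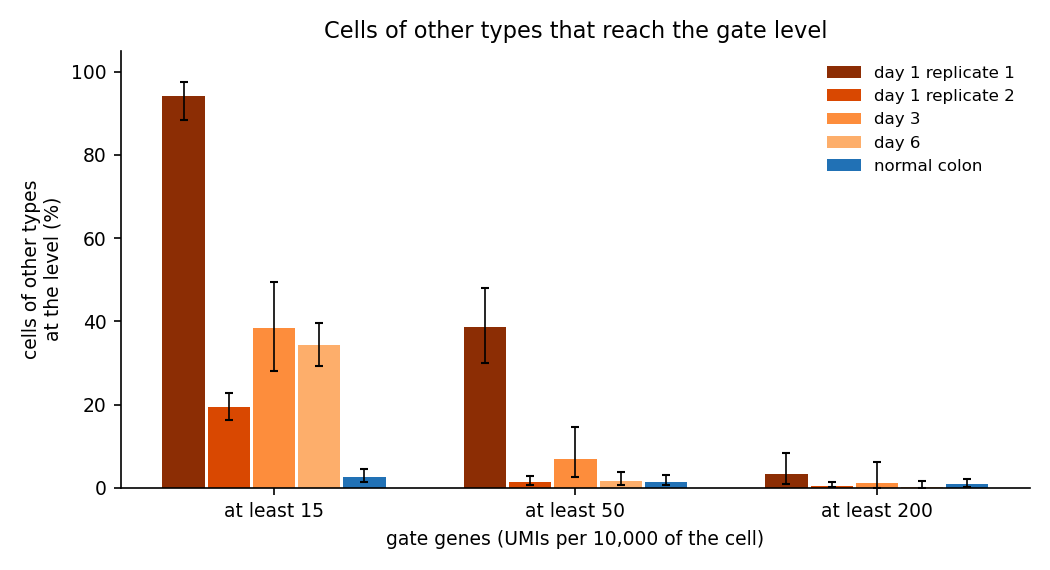
Share (%) of cells with 3 or more UMIs of Ptprc, Tyrobp, Pecam1 and Dcn whose level of the 4 gate genes was at least 15, 50 or 200 UMIs per 10000, for each library, with 95% exact binomial intervals as error bars. At 15 per 10000 the tumor libraries stood between 19.4% and 94.1% and the normal library at 2.70%.

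Keratins of squamous epithelium, a stratified tissue absent from the normal colon lining, were also found in gated tumor cells. At least 3 UMIs of Krt5 plus Krt14, keratins of basal squamous cells, were present in 177 of 573 (30.9%), 95 of 330 (28.8%), 271 of 471 (57.5%) and 568 of 666 (85.3%) gated tumor cells and in 0 of 82 gated normal cells, which allows a share of cells with that many UMIs of up to 3.66%. All 4 tumor libraries lay above the normal library, and day 6 was highest. Krt5 had no row in the normal table and was counted as 0 there. The summed level of both keratins was lower in the tumor cells at 200 or more gate UMIs per 10000 than in those at 15 to 30. It stood at 181 against 1471, 132 against 2480, 764 against 2734 and 1417 against 6138 CPM (counts per 1000000 UMIs, over the summed cells). The share of cells with at least 3 UMIs of both keratins did not fall in every library. At 200 or more per 10000 such cells were 3 of 31, 7 of 21, 12 of 26 and 36 of 42 in tumors and 0 of 28 in the normal library. This share was below that of all gated cells in day 1 replicate 1 and day 3, but not in day 1 replicate 2 and day 6.

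Agr2 and Spdef, goblet genes that the gate did not use, stood higher in the highest than in the lowest bin of the gate level in all 5 libraries. Reg4 and Creb3l1, a goblet transcription factor, did so in the tumor libraries only. In the normal library Creb3l1 stood at 388 CPM in the lowest bin and 339 CPM in the highest. Reg4 stood there at 2684, 2825, 3650, 4876 and 532 CPM from the lowest bin to the highest. In day 1 replicate 1, Agr2 stood at 149 CPM in cells at 15 to 30 per 10000 and at 3927 CPM in cells at 200 or more. In the same library Spdef went from 2.59 to 191 CPM. In day 6 Agr2 went from 436 to 3544 CPM over the same range, and in the normal library from 1281 to 2929 CPM. Just inside the lower edge of the gate, at 15 to 20 per 10000, Agr2 stood at 116, 363, 186 and 406 CPM in the tumor libraries and at 1178 CPM in the normal library. Just outside it, at 10 to 15 per 10000, it stood at 219, 214, 169, 242 and 232 CPM. In Agr2, edge cells of the tumor libraries were therefore close to the cells left out, while those of the normal library, only 6 cells, were not. Results are accordingly given for the gate as stated, for a strict gate of at least 10 UMIs and 50 per 10000 (248, 86, 79 and 104 tumor cells and 55 normal cells) and, as a description without p-values because it was chosen after the data were seen, for cells at 200 or more per 10000 (31, 21, 26 and 42 tumor cells and 28 normal cells).

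**Figure D2:**
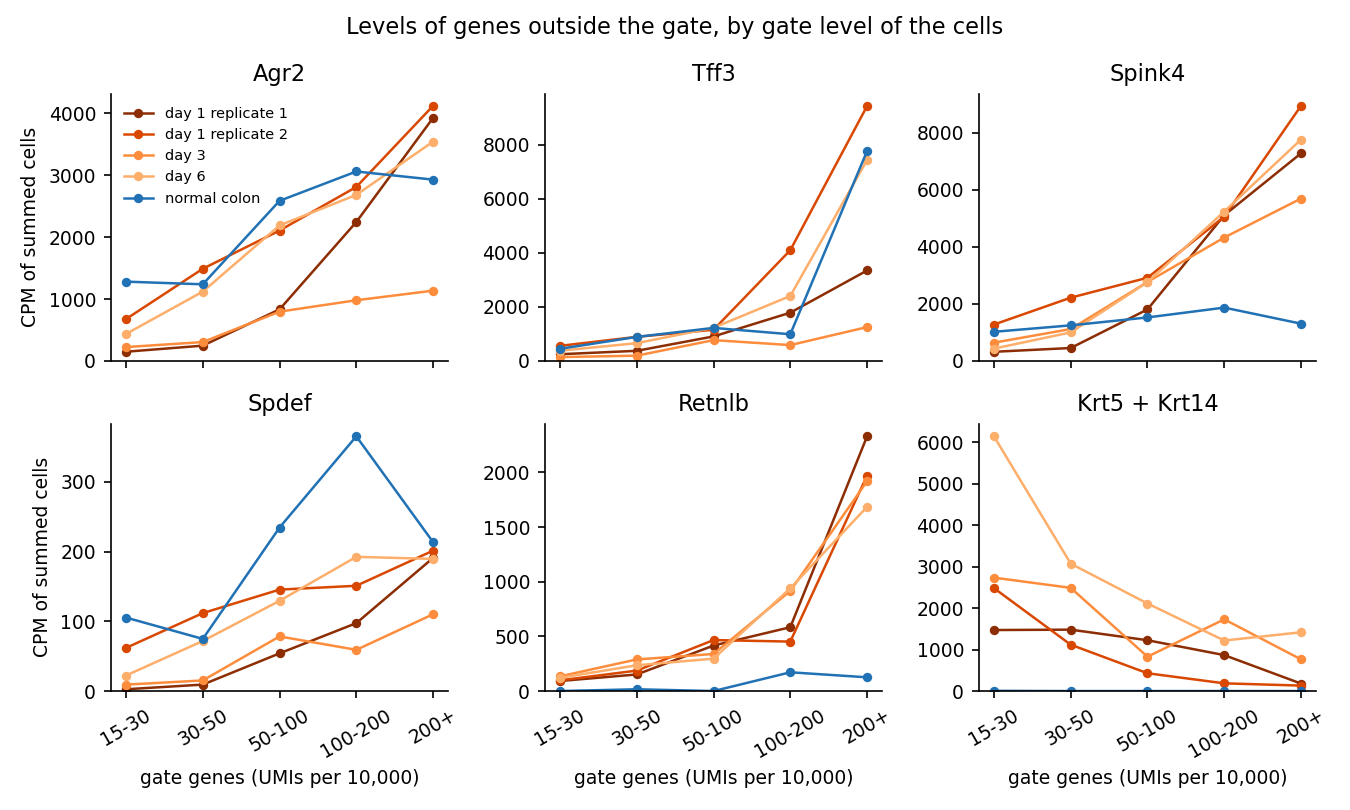
Level (CPM of summed cells, linear axes from 0) of 5 goblet genes that the gate did not use and of Krt5 plus Krt14, in bins of the gate level (UMIs of the gate genes per 10000), 1 line per library. Agr2 in day 1 replicate 1 went from 149 CPM in the lowest bin to 3927 CPM in the highest, against 1281 and 2929 CPM in the normal library.

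The 4 gate genes chose the cells, so their values are a description with no test. Muc2 (chr7:141690340-141754693, plus strand, GRCm38), the main gel-forming mucin of the colon, stood at 4386, 8136, 5979 and 4254 CPM in gated tumor cells and at 12727 CPM in gated normal cells. Clca1 (chr3:145003817-145032776, minus strand), a protease that loosens mucus, stood at 135, 252, 9.20 and 268 CPM against 4231 CPM. Every tumor library was below the normal library for both genes. In cells at 200 or more per 10000, Muc2 no longer separated the tissues, at 33455, 26229, 31308 and 22407 CPM against 28127 CPM. Clca1 still did, at 879, 715, 48.2 and 1827 CPM against 11297 CPM. Fcgbp (chr7:28071236-28120862, plus strand), a large mucus protein that cross-links with Muc2, stood at 2631, 4931, 853 and 7198 CPM against 7531 CPM in those cells. Zg16 (chr7:127050156-127087328, minus strand), a lectin that binds bacteria, stood there at 11630, 6464, 1961 and 20087 CPM against 21320 CPM. Day 3 was the lowest library for Fcgbp, Zg16 and Clca1, and day 6 came close to the normal library for Fcgbp and Zg16.

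Across all genes outside the gate, 80 differed between gated tumor and normal cells at an adjusted p under 0.05 (edgeR quasi-likelihood test on summed counts, Benjamini-Hochberg). Of 12698 genes tested, 14 (0.110%) were higher and 66 (0.520%) lower in tumors. The strict gate called 30 higher (0.326% of 9195) and 80 lower (0.870%). It shared 46 of the lower genes (69.7% of the 66 and 57.5% of the 80) and 7 of the higher genes (50.0% and 23.3%). The number rests on single libraries: it was 24 without day 1 replicate 1, 8 without day 3 and 273 without day 6. With the 3 dual index libraries alone 0 genes were called by edgeR, with 1653 at an unadjusted p under 0.05. So few libraries leave that fit little power to call any gene, so its count of 0 decides nothing. Scaling by total UMIs raised the median log2 fold change of all genes by 0.12 and gave 32 higher and 69 lower.

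The secreted products of goblet cells, as a list of 17 genes outside the gate, gave 0 calls at the gate as stated, with 4 at an unadjusted p under 0.05 by edgeR and 2 called by DESeq2, and a median log2 fold change of -0.08 against 0.15 over all genes. The strict gate called 1, Retnlb, higher. At 200 or more per 10000, 7 of the 17 lay above the normal value in every tumor library and 3 below it. Of the 12698 genes tested at the gate as stated, 15.5% and 27.6% did. The count filter kept only 6314 genes at 200 or more per 10000, so these shares include many genes with few counts there and are not a like base. Retnlb (chr16:48816856-48818892, plus strand), a goblet cell protein that acts on gut bacteria, stood at 286, 515, 400 and 346 CPM in gated tumor cells and at 67.6 CPM in normal ones (log2 fold change 2.41 ± 0.64 SE, adjusted p = 0.154). In the strict gate it stood at 889, 929, 1086 and 1013 CPM against 104.7 CPM, a mean of 979 ± 88.1 CPM (SD, n = 4) and 9.36 times the normal level (3.19 ± 0.67 SE, adjusted p = 0.0478). At 200 or more per 10000 it reached 2330, 1971, 1920 and 1685 CPM against 126 CPM. The tumor libraries lay above the normal library at every gate and were close to each other, and Retnlb also stood at 240, 107, 205 and 73.0 CPM in other-type cells of the tumor libraries against 1.62 CPM in the normal library.

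Products that help fold or pack mucus did not pass the test. Agr2, the disulfide isomerase that Muc2 needs, stood at 557, 1933, 437 and 1165 CPM against 2266 CPM (log2 fold change -1.27 ± 0.77 SE, adjusted p = 0.47). At 200 or more per 10000 it stood at 3927, 4122, 1135 and 3544 CPM against 2929 CPM, so that 3 tumor libraries were above the normal library. Tff3, a trefoil peptide released with mucin, stood at 599, 2669, 337 and 1290 CPM against 3313 CPM (-1.57 ± 0.90 SE, adjusted p = 0.449). In the cells at 200 or more it stood at 3349, 9442, 1252 and 7443 CPM against 7773 CPM. For both genes the order of the tissues changed with the gate or the tumor libraries overlapped the normal value.

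A pair of goblet products was higher in every tumor library in the cells at 200 or more per 10000. Reg4, a secreted lectin of goblet and endocrine cells, stood at 1509, 2415, 3977 and 2019 CPM in gated tumor cells against 2335 CPM (log2 fold change 0.00 ± 0.71 SE, adjusted p = 1). At 200 or more per 10000 it stood at 7342, 4945, 14622 and 3911 CPM against 532 CPM, while at 100 to 200 per 10000, where it stood at 5233, 2562, 11660 and 9373 CPM against 4876 CPM, the normal value lay within the range of the tumor libraries. Spink4, a protease inhibitor of goblet cells, stood at 1132, 3512, 1686 and 1704 CPM against 1330 CPM (0.48 ± 0.74 SE, adjusted p = 0.794) and at 7276, 8942, 5690 and 7758 CPM against 1305 CPM in the narrow gate. Both genes missed the threshold also in the strict gate (adjusted p = 0.452 and 0.272). Spink4 was named after its values were seen, as were Sval1, Klk1, Mptx1, Reg3g, Lyz1, Cxcl5, Capn8, Hpd, Fos, Jun, Egr1, Dusp1, Zfp36, Ier3, Hspa8 and Krt5.

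Other products leaned the other way without passing. Klk1, a kallikrein protease, stood at 150, 283, 154 and 434 CPM against 2887 CPM (log2 fold change -3.60 ± 0.63 SE, adjusted p = 0.0557). Sval1, a seminal vesicle antigen-like protein, stood at 31.3, 114, 3.25 and 45.3 CPM against 443 CPM (-3.34 ± 1.03 SE, adjusted p = 0.212). Mptx1, a pentraxin of the colon, stood at 6.71, 6.79, 29.8 and 174 CPM against 13158 CPM (-7.96 ± 1.49 SE, adjusted p = 0.0642). All 4 tumor libraries were below the normal library for the 3 genes at each of the 3 gates. Ang4, a ribonuclease that kills bacteria, stood at 465, 743, 241 and 33.9 CPM against 171 CPM (0.95 ± 1.24 SE, adjusted p = 0.749) and at 276, 243, 151 and 63.1 CPM against 451 CPM in the cells at 200 or more per 10000.

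The other goblet genes, a list of 24, also gave 0 calls (edgeR, 6 at an unadjusted p under 0.05; DESeq2 called 1 higher and 1 lower), and their median log2 fold change was -0.97 at the gate as stated and -0.22 in the strict gate. At 200 or more per 10000, 8 of them lay above the normal value in every tumor library, among them Best2, a bicarbonate channel (251, 309, 365 and 272 CPM against 199 CPM), and Capn8, a calpain protease of mucus cells, while 4 lay below it, among them Hpd, a tyrosine catabolism enzyme. The lists were thus split in direction in the narrow gate. Of the 12698 genes tested at the gate as stated, many with few counts here, 15.5% lay above and 27.6% below the normal value in every tumor library.

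**Figure D3:**
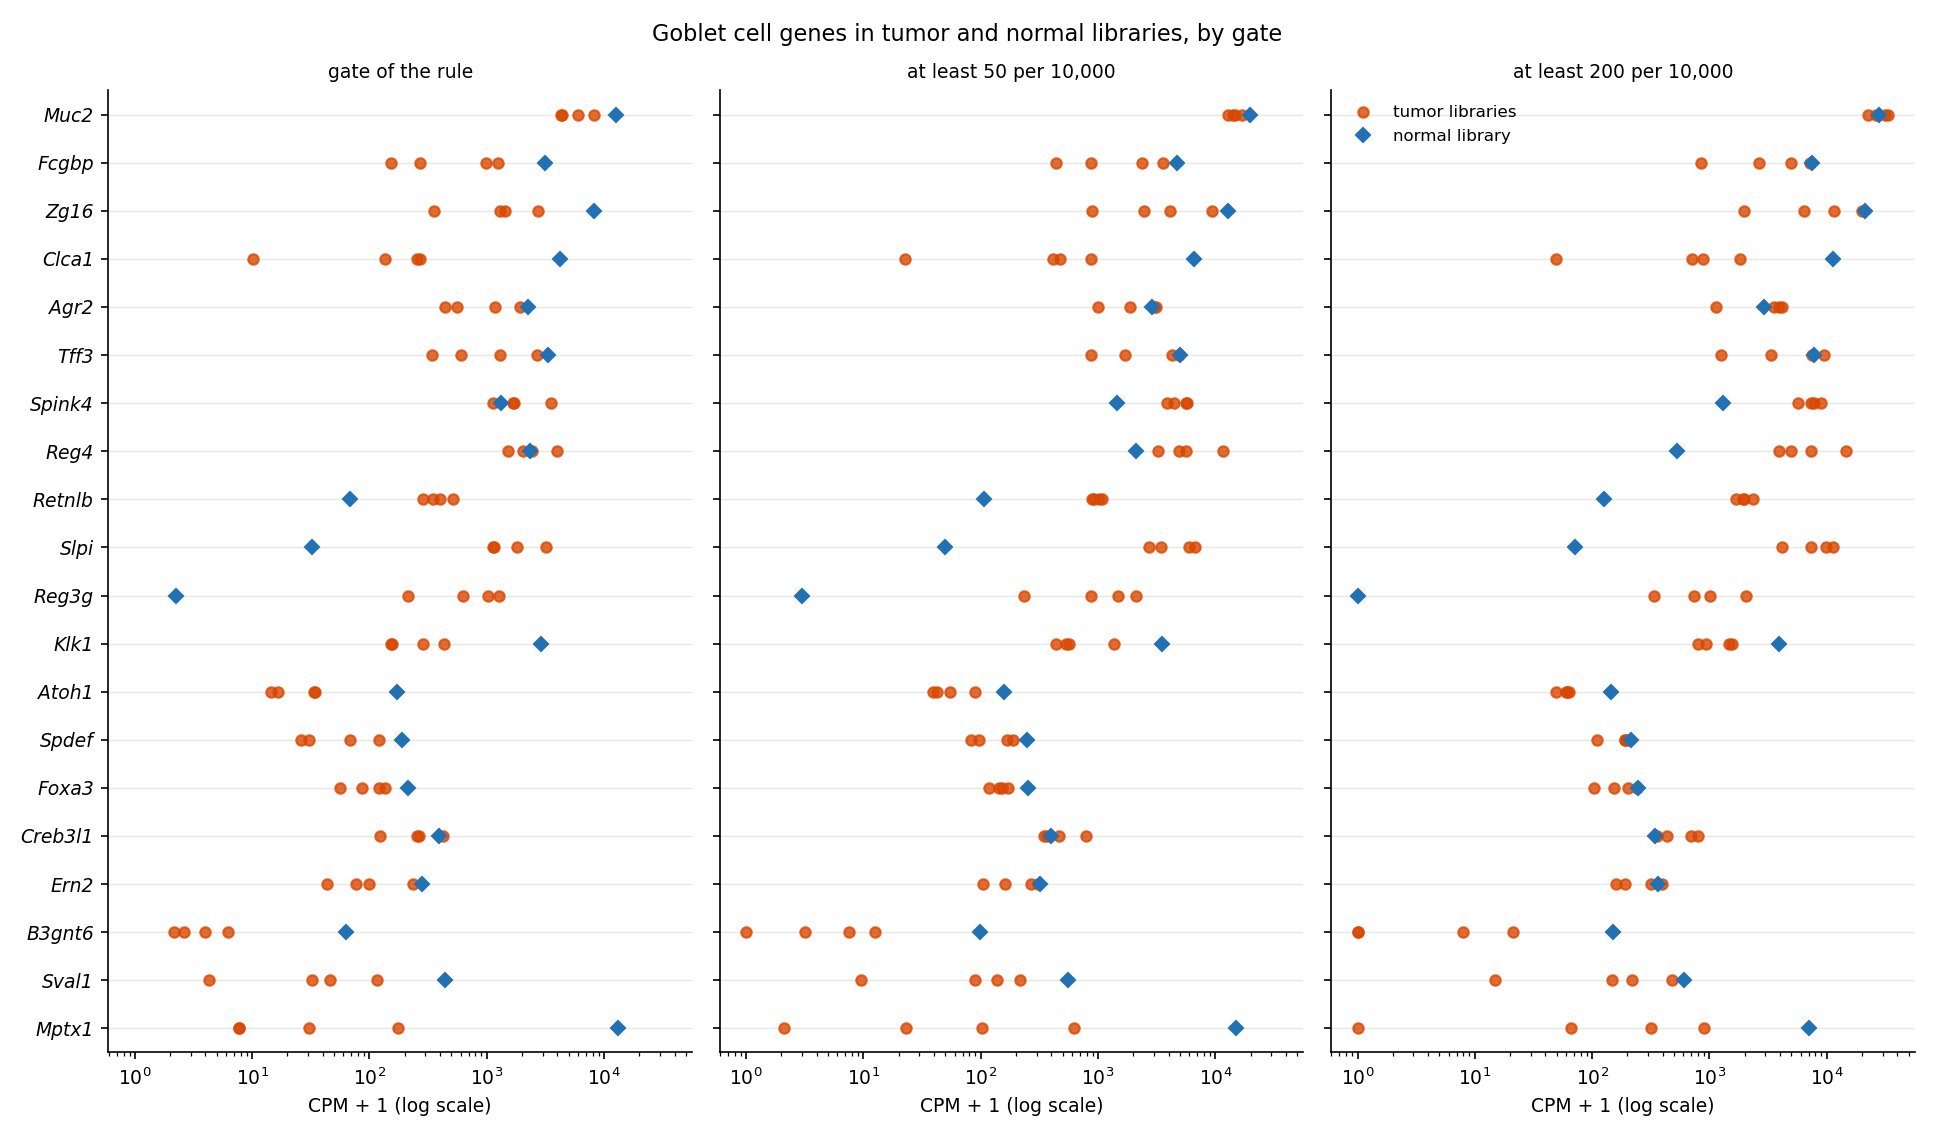
Level (CPM + 1, log axis) of the gate genes and other goblet and secretory genes in the 4 tumor libraries (circles) and the normal library (diamond), for the gate as stated and for cells at 50 or more and 200 or more per 10000 (the panel at 50 also needs 10 UMIs). Retnlb and Slpi lie right of the normal value in all 4 tumor libraries in each panel, B3gnt6, Klk1 and Clca1 left of it, and Muc2 overlaps it only in the last panel.

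Goblet transcription factors gave 0 calls among 16 tested (edgeR, 10 at an unadjusted p under 0.05 and 4 lower by DESeq2), with a median log2 fold change of -1.55, and 11 of the 16 lay below the normal value in every tumor library, where 23.4% of all genes did. Atoh1, the secretory fate factor, stood at 13.4, 32.4, 15.7 and 33.5 CPM in gated tumor cells and at 170 CPM in normal ones (-2.95 ± 0.54 SE, adjusted p = 0.0611). In the strict gate it stood at 38.2, 41.7, 53.7 and 89.1 CPM against 157 CPM (-1.53 ± 0.53 SE, adjusted p = 0.242). Spdef, which acts below Atoh1, stood at 25.1, 120, 29.2 and 67.4 CPM against 189 CPM (-1.77 ± 0.74 SE, adjusted p = 0.33) and at 191, 201, 110 and 189 CPM against 213 CPM at 200 or more per 10000. Klf4, a factor of mature goblet and surface cells, stood at 211, 477, 145 and 780 CPM against 1512 CPM (-2.01 ± 0.80 SE, adjusted p = 0.311). The gap in Spdef was small in the narrow gate, and that in Atoh1 was narrower but left no overlap, at 60.3, 62.5, 48.2 and 59.2 CPM against 143 CPM.

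Among 33 tested genes that build the sugar chains of mucins, 1 fell and 0 rose (8 at an unadjusted p under 0.05 by edgeR). B3gnt6, the enzyme that makes core 3 O-glycans, the chain type typical of colon mucin, stood at 2.98, 5.22, 1.62 and 1.14 CPM in gated tumor cells and at 62.6 CPM in normal ones. The 4 tumor libraries together held 28 counts of it against 50 counts in the far smaller normal sum. The normal level was 22.8 times the tumor mean of 2.74 ± 1.83 CPM (SD, n = 4; log2 fold change -4.64 ± 0.62 SE, adjusted p = 0.0213). The gap persisted in the strict gate, at 11.6, 6.59, 2.15 and 0 CPM against 96.6 CPM (adjusted p = 0.0286), and at 200 or more per 10000, at 20.1, 6.94, 0 and 0 CPM against 150 CPM. The call is lost without day 1 replicate 1 (adjusted p = 0.0777) or day 3 (adjusted p = 0.109). The endoplasmic reticulum folding list gave 1 lower call of 33, Atf4, a stress-response transcription factor (176, 119, 106 and 118 CPM against 870 CPM, adjusted p = 0.0286). The list of translocation and Golgi transport genes gave 0 of 35 (2 at an unadjusted p under 0.05 by edgeR and 0 by DESeq2), with a median log2 fold change of 0.00. The median was -0.42 for the sugar chain genes, of which 16 of 34 lay below the normal value in every tumor library, and -0.10 for the folding list, of which DESeq2 called 3 lower, against 0.15 over all genes, of which 23.4% lay below the normal value in every tumor library.

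The immediate early and heat shock genes, which cells switch on within minutes of a stimulus or of handling, had the most calls of the lists: 11 of 22 tested fell in tumors and 0 rose, with a median log2 fold change of -3.31 (edgeR, 18 at an unadjusted p under 0.05), where 0.520% of all genes were called lower. The strict gate called 14 of 22. Atf3 (chr1:191170296-191218039, minus strand), a stress-induced transcription factor, stood at 30.3, 20.9, 13.0 and 17.5 CPM in gated tumor cells and at 1840 CPM in gated normal cells. The normal level was 90.1 times the tumor mean of 20.4 ± 7.36 CPM (SD, n = 4; log2 fold change -6.62 ± 0.49 SE, adjusted p = 0.00208). Fosb, a partner in the AP-1 transcription factor, stood at 13.9, 21.4, 16.2 and 14.8 CPM against 696 CPM (-5.51 ± 0.41 SE, adjusted p = 0.00208). Atf3 and Fosb remained called when any 1 tumor library was left out, and missed the threshold with the dual index libraries alone (adjusted p = 0.0518 for both).

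Other members showed the same layout of values. Fos stood at 187, 278, 228 and 238 CPM against 3775 CPM (adjusted p = 0.0125) and Jun, its AP-1 partner, at 155, 82.5, 135 and 61.6 CPM against 1936 CPM (adjusted p = 0.0187). Egr1, a growth-factor-induced zinc finger factor, stood at 42.3, 29.8, 43.8 and 24.7 CPM against 1063 CPM (adjusted p = 0.00329). Nr4a1, an orphan nuclear receptor, stood at 64.9, 51.7, 59.5 and 20.2 CPM against 1601 CPM (adjusted p = 0.0109). For each of these the normal value was more than 10 times the highest tumor value. Hspa1a, an inducible heat shock protein, stood at 3.48, 2.61, 14.1 and 12.9 CPM against 451 CPM (adjusted p = 0.0202). Of the 22 members, 20 lay below the normal value in every tumor library, Ier3 lay above it and Hspa8, a constitutive chaperone, was mixed.

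The same genes were low in tumor cells outside the gate. In other columnar cells, which had at least 5 UMIs and 15 per 10000 of Epcam, Krt8, Krt18, Krt19 and Cdh1, lay below the gate and had under 3 UMIs of Krt5 plus Krt14, Atf3 stood at 99.2, 24.4, 31.3 and 34.3 CPM in tumors and at 2282 CPM in the normal library. In cells of other types it stood at 59.4, 39.5, 38.3 and 20.8 CPM against 1177 CPM. The interaction test, which asks whether the tumor-normal difference of gated cells departs from that of other columnar cells, called 0 of 22 of these genes (edgeR, 1 at an unadjusted p under 0.05 and 0 by DESeq2). Of the 66 genes lower in gated tumor cells, 62 were also lower in every tumor library in other columnar cells and 59 in cells of other types. Of the 14 genes higher in gated tumor cells, 12 were also higher in every tumor library in other columnar cells and 12 in cells of other types. The share over all genes was not counted in those classes, so these counts have no base to be read against. In gated cells, 34.1% of all genes tested lay above and 23.4% below the normal value in every tumor library. As a description only, most of the 66 low values and most of the 14 high values were measured in all 3 cell classes. The tumor and the preparation of the libraries cannot be told apart in them.

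**Figure D4:**
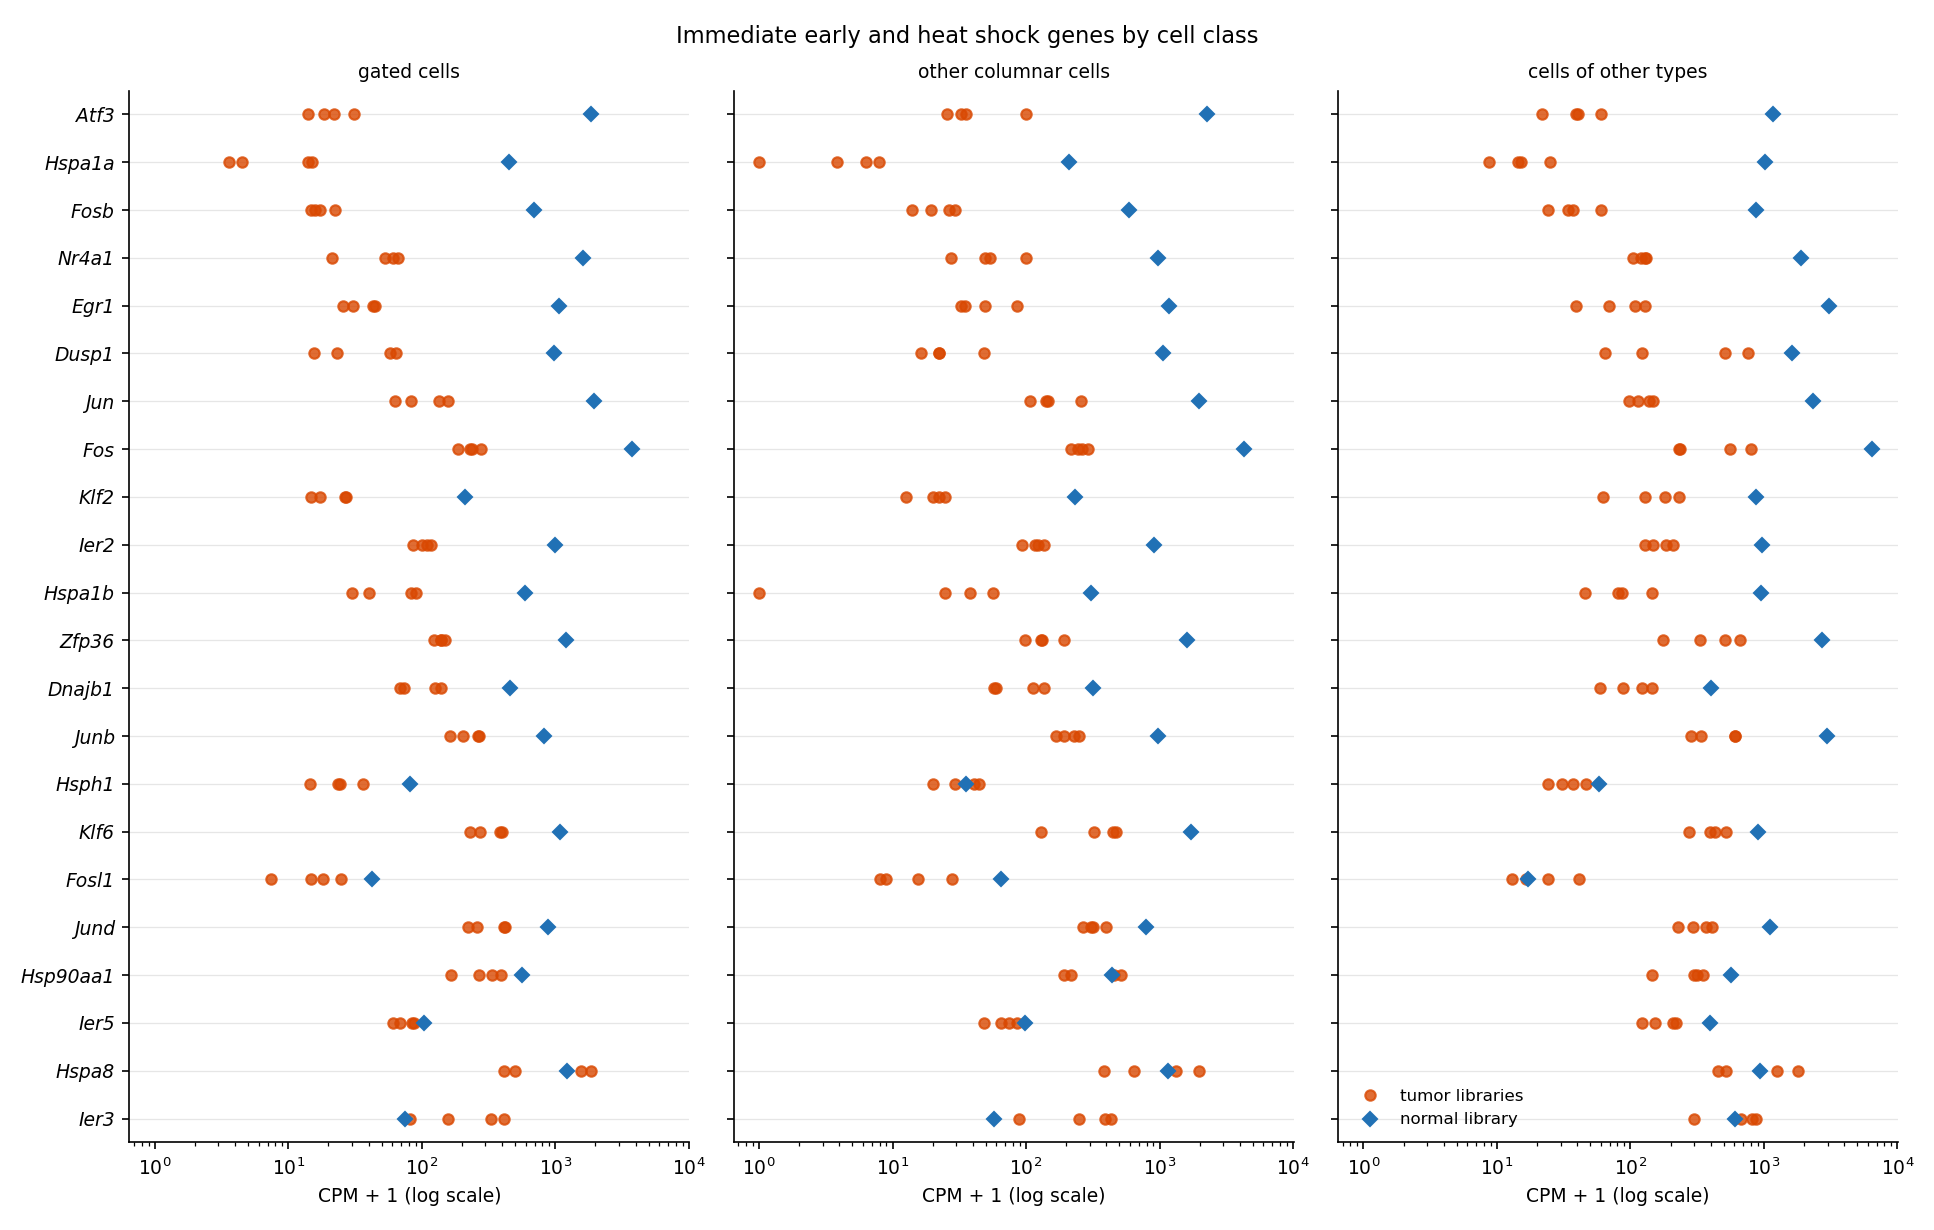
Level (CPM + 1, log axis) of the 22 immediate early and heat shock genes in the 4 tumor libraries (circles) and the normal library (diamond), for gated cells, other columnar cells and cells of other types. Atf3 is the top row, with tumor values of 13.0 to 30.3 CPM and a normal value of 1840 CPM in gated cells, and the diamond lies right of the circles for most genes in all 3 panels.

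Promoters of the lower genes were searched for 2 motifs of stimulus-induced genes, in the window from 250 bases before to 50 after each gene's start (RefSeq, GRCm38.p6): the cAMP response element TGACGTCA, read on both strands (it is its own reverse complement), and the CArG box of serum response factor. Of the 66 lower genes, 48 matched an entry. The cAMP response element lay in 4 of them (8.33%), Arl4d, Btg2, Dusp1 and Dusp8, against 3.55% of 9654 matched genes tested and 2.03% of all 27025. The CArG box lay in 4 (8.33%), Acta1, Egr2, Tmem163 and Zfp36, against 1.64% and 1.81%. Counts of 4 are small, and a match is a stretch of letters and not a bound site. The 3 windows shown are a choice from the lower genes that carry a motif, each on a different chromosome. Dusp1, a phosphatase that shuts off stress kinases, stood at 57.2, 62.7, 22.2 and 14.5 CPM against 976 CPM. Btg2, an antiproliferative p53 target, stood at 97.0, 133, 53.04 and 70.8 CPM against 1135 CPM. Zfp36, which destabilises inflammatory mRNAs, stood at 122, 139, 137 and 149 CPM against 1206 CPM. Capitals mark the motif, and each window is written 5′ to 3′ on the minus strand.
Dusp1, cAMP response element, chr17:26508423-26508722: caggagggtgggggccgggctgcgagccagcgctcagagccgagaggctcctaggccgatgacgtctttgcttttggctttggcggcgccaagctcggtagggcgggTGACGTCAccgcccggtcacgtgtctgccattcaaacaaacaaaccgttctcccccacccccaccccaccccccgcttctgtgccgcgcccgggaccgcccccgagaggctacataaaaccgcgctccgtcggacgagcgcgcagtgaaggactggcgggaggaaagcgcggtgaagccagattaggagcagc
Btg2, cAMP response element, chr1:134079106-134079405: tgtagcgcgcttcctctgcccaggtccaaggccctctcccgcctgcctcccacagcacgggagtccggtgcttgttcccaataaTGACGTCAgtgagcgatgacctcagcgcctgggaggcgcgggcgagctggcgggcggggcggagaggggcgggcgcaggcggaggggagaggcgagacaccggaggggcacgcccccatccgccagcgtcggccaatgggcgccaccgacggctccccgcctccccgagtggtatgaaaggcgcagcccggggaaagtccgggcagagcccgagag
Zfp36, CArG box, chr7:28379179-28379478: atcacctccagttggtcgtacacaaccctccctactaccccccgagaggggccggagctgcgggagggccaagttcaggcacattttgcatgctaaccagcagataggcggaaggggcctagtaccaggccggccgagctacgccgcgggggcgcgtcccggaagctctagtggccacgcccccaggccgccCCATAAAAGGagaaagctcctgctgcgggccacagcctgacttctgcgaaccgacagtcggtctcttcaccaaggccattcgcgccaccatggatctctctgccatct

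Several of the largest differences lay outside any goblet list. Edn2, the peptide endothelin 2, had 4 counts over the tumor libraries together against 174 in the normal library (0, 0, 0.541 and 1.14 CPM against 218 CPM, adjusted p = 0.00304). Acta1, skeletal muscle actin and a target of serum response factor, stood at 1.49, 0, 1.62 and 1.14 CPM against 222 CPM (adjusted p = 0.00267). Egr2 and Arc, further immediate early genes outside the list, stood at 2.17 to 3.98 CPM in tumors each and at 156 and 154 CPM in the normal library (adjusted p = 0.00208 for both). Nr4a3, related to Nr4a1, stood at 0.497, 3.13, 1.62 and 1.90 CPM against 97.6 CPM (adjusted p = 0.0109). Hsd3b3, a steroid dehydrogenase, and Dpep1, a dipeptidase, stood at no more than 2.17 CPM in each tumor library against 46.3 and 50.1 CPM (adjusted p = 0.00799 and 0.0272).

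For 3 of the 12 lowest genes the count itself is uncertain. Rps18-ps3, a pseudogene of a ribosomal protein, stood at 0.497, 1.04, 0.541 and 4.57 CPM against 2529 CPM (adjusted p = 0.00304), while Rps18, its near-identical parent, stood at 393, 334, 330 and 478 CPM against 1005 CPM, so how reads were divided between the copies is uncertain. The mitochondrial gene mt-Co2 stood at 0 to 1.57 CPM against 100 CPM (adjusted p = 0.0114), although mt-Co1 stood at 659, 1401, 537 and 1327 CPM against 1397 CPM (adjusted p = 0.688). Gm17660, a predicted gene, rested on 20 counts in the normal library and 3 in the tumors together.

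Single members of other lists fell too, where 0.520% of all genes were called lower. Of 16 tested absorptive colonocyte genes 2 fell: Cyp2c55, a fatty-acid hydroxylase (4.48, 6.79, 0.541 and 3.42 CPM against 91.4 CPM, adjusted p = 0.0259), and Fabp2, an intestinal fatty acid carrier (11.7, 11.5, 8.12 and 7.61 CPM against 78.8 CPM, adjusted p = 0.0202). The hypoxia and glycolysis list had 1 lower call of 21, Ndrg1, which is known to respond to low oxygen (62.4, 75.2, 56.3 and 67.7 CPM against 380 CPM, adjusted p = 0.0261). Of 24 tested p53 targets, 1 fell, Btg2 (adjusted p = 0.0187), and 0 rose. In the list of fetal-like and YAP target genes, Cyr61, a matrix protein that stimuli induce quickly, fell (13.9, 9.40, 8.66 and 15.6 CPM against 412 CPM, adjusted p = 0.00267). In the list of Paneth cell markers, 1 of 9 fell, Nupr1, a stress protein that many cells make (48.7, 66.3, 48.2 and 60.1 CPM against 625 CPM, adjusted p = 0.0114). The list as a whole did not follow Nupr1. Its 10 markers summed to 2991, 5057, 2792 and 511 CPM in gated tumor cells against 647 CPM in normal ones. Of the 10, 7 were at 0 in the normal library. The part of Paneth-like cells in the gated tumor cells was not tested.

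The genes that rose in gated tumor cells were led by squamous and stress keratins. Krt6a (chr15:101689910-101694307, minus strand), a keratin of wounded and activated squamous epithelium, stood at 1294, 1026, 1560 and 1917 CPM in tumors and had no row in the normal table, so it was counted as 0. Against the level of 3 counts in the normal sum, 3.75 CPM, its mean of 1449 ± 381 CPM (SD, n = 4) was at least 386-fold higher (adjusted p = 0.0125). Krt6b was at least 91.4-fold higher (adjusted p = 0.0213). Krt14 stood at 827, 877, 1070 and 2519 CPM against 1.25 CPM, which is 1 count (adjusted p = 0.0416). Of 12 tested squamous markers, 2 rose, Krt6a and Krt14, and all 12 lay above the normal value in every tumor library, where 0.110% of all genes were called higher and 34.1% lay above the normal value in every tumor library. Their summed level was 4191, 2881, 7355 and 10543 CPM against 18.8 CPM, with 8 of 13 markers at 0 in the normal library, among them Krt5. Like Krt6a, Krt5 had no row in the normal table and was counted as 0.

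Krt6a was lower in the cells with the most goblet RNA. It stood at 537, 281, 385 and 1137 CPM in cells at 200 or more per 10000, below its level at the gate as stated in every tumor library. It also stood at 690, 762, 1630 and 1407 CPM in cells of other types of the tumor libraries and at 0 in those of the normal library. Without cells that had 3 or more UMIs of Krt5 plus Krt14 or any UMI of the other types' markers, 135 genes were called in all, and Krt6a was among them.

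The other genes that rose included markers of blood cells. Retnlg, a resistin-like protein of neutrophils, stood at 45.8, 75.7, 55.7 and 33.5 CPM against 0, at least 14.03-fold higher (adjusted p = 0.0452). Retnlg had no row in the normal table, so it was counted as 0. Srgn, a granule proteoglycan of blood cells, stood at 163, 280, 149 and 204 CPM against 8.76 CPM (adjusted p = 0.0486). Cells of other types carried more Srgn in every tumor library, at 1823, 2992, 210 and 1542 CPM, and more Retnlg in all but day 3, at 311, 786, 53.6 and 172 CPM. Beside them, the summed level of 13 myeloid markers in gated cells was 793, 1026, 587 and 327 CPM against 52.6 CPM, with S100a8, S100a9 and Cxcr2 at 0 in the normal library. Anxa8, an annexin of squamous and basal cells, was 21.4 times the normal level (234, 274, 329 and 344 CPM against 13.8 CPM, adjusted p = 0.0486). Mal, Ly6g6c, U90926 and 2010109I03Rik stood at 0 in the normal library and between 23.0 and 371 CPM in each tumor library, and Nxn, a nucleoredoxin, stood at 149, 80.9, 131 and 113 CPM against 5.01 CPM (adjusted p between 0.0226 and 0.0486 for these 5).

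The summed markers of further cell types were not all higher in tumors, since the lymphoid sum of day 3 lay below that of the normal library. Erythroid globin genes summed to 6729 and 7751 CPM in the day 1 libraries, to 141 and 128 CPM at day 3 and day 6 and to 1.25 CPM in the normal library. Lymphoid markers summed to 7331, 1112, 373 and 19527 CPM against 619 CPM. Neither list had a call (edgeR, 3 of 4 and 0 of 13 at an unadjusted p under 0.05, and 3 and 0 by DESeq2). Enteroendocrine markers summed to 535, 219, 552 and 926 CPM against 11.3 CPM, and their peptide hormone Pyy, at 180, 165, 307 and 540 CPM against 2.50 CPM, passed only in the strict gate (adjusted p = 0.0722 and 0.0114). The sums of globin and lymphoid markers spread more widely between tumor libraries than those of the squamous and myeloid lists, and their part in the result was not tested.

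Antimicrobial and inflammatory epithelial genes gave 0 of 28 at the gate as stated (edgeR, 12 at an unadjusted p under 0.05; DESeq2 called 8 higher), and 3 of 26 rose in the strict gate: Slpi, Reg3g and Cxcl5. Slpi (chr2:164354070-164389095, minus strand), a protease inhibitor of mucosal secretions, stood at 1160, 3223, 1126 and 1824 CPM in gated tumor cells against 31.3 CPM, 58.6 times the normal level (log2 fold change 5.75 ± 1.07 SE, adjusted p = 0.0629). In the strict gate it stood at 3448, 5969, 2699 and 6660 CPM against 48.3 CPM (6.56 ± 1.00 SE, adjusted p = 0.0102). At 200 or more per 10000 it stood at 7347, 9785, 4197 and 11215 CPM against 70.0 CPM. Slpi thus climbed with the gate level in every tumor library. It climbed in the normal library too, but from 31.3 to no more than 70.0 CPM. It also stood at 1091, 933, 711 and 587 CPM in cells of other types in the tumors, between 28.9% and 94.0% of its gated level. Reg3g, an antibacterial lectin, stood at 2092, 868, 1475 and 231 CPM against 2.01 CPM in the strict gate (9.02 ± 1.72 SE, adjusted p = 0.0305). Reg3b, its neighbour and close relative, had no row in the normal table and stood at 290, 287, 154 and 47.2 CPM in gated tumor cells (adjusted p = 0.0751). Lyz1, the Paneth cell lysozyme, stood at 3698, 986, 2869 and 477 CPM against 4.03 CPM in the strict gate (adjusted p = 0.0306).

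Growth lists gave no call. Of 23 tested stem cell and WNT target genes, 0 passed (edgeR, 7 at an unadjusted p under 0.05; DESeq2 called 2 higher), with a median log2 fold change of 1.81 at the gate as stated and 0.74 in the strict gate. Of 30 cell cycle genes 0 passed (2 at an unadjusted p under 0.05 by edgeR and 0 by DESeq2), with a median of 0.32. The interferon response list gave 0 of 24 and MHC class II genes 0 of 8 (0 at an unadjusted p under 0.05 and 0 by DESeq2 for both), with medians of 1.47 and 2.64. H2-K1, an MHC class I heavy chain, stood at 695, 568, 1454 and 3204 CPM against 678 CPM (adjusted p = 0.664). Its tumor values lay near the normal value on day 1 and above it at day 3 and day 6. The Notch pathway gave 0 of 10 (6 at an unadjusted p under 0.05 by edgeR and 0 by DESeq2), posterior Hox genes 0 of 12 (1 and 0), ion channels and transporters 0 of 16 (8 and 4) and targets and metabolic enzymes of the 2 drugs 0 of 19 (2 and 1).

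Within the tumor libraries, gated cells were set against other columnar cells, with the library as a block. The gate defines both classes, so the gate genes were left out and the comparison describes what else goes with goblet RNA. Of 11047 genes tested, 99 (0.896%) were higher in gated cells and 2 (0.0181%) lower (edgeR). The 99 include 7 of 11 tested squamous markers, since only the other columnar cells were limited in Krt5 plus Krt14. A further fit left out gated cells with 3 or more UMIs of these keratins or any UMI of the other types' markers. It gave 51 higher and 1 lower. The strict gate gave 268 higher (3.22% of 8333) and 96 lower (1.15%). Spdef, with 7.09, 8.65, 4.58 and 7.92 CPM in other columnar cells and 25.1, 120, 29.2 and 67.4 CPM in gated cells, had a log2 difference of 3.55 ± 0.32 SE (adjusted p = 0.000145). Best2 differed by 3.42 ± 0.34 SE (adjusted p = 0.000358). Other leading genes were Ano7, an anoctamin (4.73), Sval1 (4.29), Hpd (3.83), and Slc12a8, a cation-chloride cotransporter family member (3.68). Spdef was thus higher in the gated cells of every tumor library.

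By list, 11 of 17 goblet products and 9 of 22 other goblet genes rose in gated tumor cells, as did 2 of 16 goblet transcription factors, Atoh1 and Spdef. Over all genes, 0.896% were called higher at the gate as stated and 3.22% in the strict gate. The shares called lower were 0.0181% and 1.15%, so counts at the 2 gates have unlike bases. The strict gate gave 19 of 30 higher for mucin O-glycosylation, against 5 of 32 at the gate as stated. For endoplasmic reticulum folding it gave 12 of 29, against 3 of 31. It also gave 14 of 34 for translocation and Golgi transport, against 1 of 34. Stem and WNT target genes gave 0 of 23 (edgeR, 6 at an unadjusted p under 0.05 and 0 by DESeq2) at the gate as stated and 8 of 20 lower in the strict gate. Squamous markers are left out of these lists, although the counts over all genes hold them. Other columnar cells had to carry under 3 UMIs of Krt5 plus Krt14 and gated cells did not. The 2 lower genes were Sema6a, a semaphorin (-1.03 ± 0.22 SE, adjusted p = 0.043), and Tm4sf20, a membrane protein of enterocytes (-0.79 ± 0.16 SE, adjusted p = 0.0325). The count fell to 12 without day 1 replicate 1, which had 41 other columnar cells.

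The interaction test gave 39 of 13526 genes whose tumor-normal difference in gated cells departed from that in other columnar cells: 28 (0.207%) more positive in gated cells and 11 (0.0813%) more negative (edgeR). Of 16 tested absorptive colonocyte genes, 6 were in the more positive group. Aqp8, a water channel of surface cells, stood at 7.09, 4.56, 5.34 and 10.6 CPM in other columnar tumor cells and at 237 CPM in normal ones, and at 12.2, 6.79, 8.12 and 13.3 CPM against 10.01 CPM in gated cells (log2 difference of differences 5.29 ± 0.60 SE, adjusted p = 0.000111). Car4, a membrane carbonic anhydrase, stood at 0, 1.57, 14.5 and 68.7 CPM against 248 CPM in other columnar cells (5.04 ± 0.74 SE, adjusted p = 0.00326). Gated cells held little of either gene in both tissues, with Car4 at 2.49, 0, 28.1 and 41.1 CPM against 7.51 CPM, so the normal columnar cells stood alone.

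Among the more negative genes were antimicrobial products that tumor columnar cells carried and normal columnar cells hardly did. Ang4 stood at 135, 133, 78.6 and 55.5 CPM in other columnar tumor cells and at 1.19 CPM in normal ones (log2 difference of differences -5.35 ± 0.99 SE, adjusted p = 0.0121). Pla2g2a, a bactericidal phospholipase of secretory cells, stood at 907, 535, 486 and 89.8 CPM against 0.398 CPM in other columnar cells and at 877, 684, 600 and 147 CPM against 17.5 CPM in gated cells (-4.80 ± 0.92 SE, adjusted p = 0.0158). Both tumor classes thus carried similar levels of Pla2g2a. The normal columnar sum of 2514493 UMIs held few counts of Ang4 and Pla2g2a, so the sizes of these differences are uncertain. Bcas1, from the list of other goblet genes, stood at 63.8, 39.3, 21.4 and 47.5 CPM against 5.18 CPM in other columnar cells and at 72.4, 222, 55.2 and 138 CPM against 255 CPM in gated cells (-3.72 ± 0.63 SE, adjusted p = 0.007). In the strict gate none of these 3 genes passed (adjusted p = 0.124 for Ang4, 0.205 for Pla2g2a and 0.124 for Bcas1, edgeR). The number of calls was 8 in the strict gate, 1 without day 1 replicate 1 and 203 without day 1 replicate 2.

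Late treatment (day 3 and day 6) against early treatment (the 2 day 1 libraries) gave 0 of 11662 genes in gated tumor cells (0%, edgeR), with 794 at an unadjusted p under 0.05, and DESeq2 called 88. With library structure as a block, so that each late library was set against the day 1 library of the same structure, 278 genes were called, 136 higher and 142 lower late. Without day 3, 68 were called. With 2 libraries a group the comparison of days is limited. Ang4 stood at 465 and 743 CPM on day 1 against 241 and 33.9 CPM later, and Krt14 at 827 and 877 CPM against 1070 and 2519 CPM.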

How the data were processed

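Per the study's methods, the authors aligned inDrop reads and counted UMIs with dropEst against mouse GRCm38.85, and the deposited values are raw UMI counts per gene and cell barcode, 1 table per library, with no normalization. Members, gene lists and tests were chosen with earlier results of these data known. Kept cells were gated as described in the report and summed per library (5124405 to 16786230 UMIs over all kept cells). Other columnar cells were those below the gate with columnar markers, under 3 UMIs of Ptprc, Tyrobp, Pecam1 and Dcn and under 3 of Krt5 plus Krt14. In the normal table, 1172 gene names altered by software were mapped back, and 49 genes at risk of date conversion (24 converted names) were left out of every library. Sums were tested with edgeR 4.0.16 (R 4.3.3; filterByExpr, TMM, quasi-likelihood F test, Benjamini-Hochberg), and DESeq2 1.42.0 was an alternative. The comparisons were tumor against normal, its interaction with cell class, gated against other columnar cells with library as a block, and late against early. CPM used untransformed sums without a prior count, a fold against 0 used 3 counts in the normal sum, and doublets were treated only by leaving out cells above 2 times the median depth, as an alternative. Fits were tested on simulated data. Named genes were the 12 most raised and 12 most lowered called genes with at least 20 UMIs, the called or largest members of each list, some fixed goblet genes and the 6 most positive and negative genes of the other tests. Coordinates are GENCODE vM21 on GRCm38. Python 3.11.15 with pandas 2.3.3, scipy 1.17.1 and matplotlib 3.10.9 did the rest. Counting intervals do not cover differences between mice. A result among the named genes is not reported here.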

Additional observations from a re-analysis of the deposited data

Results flagged for a closer look

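Among the 4 tumor libraries, 2 of 37 values tested had a sample standing apart by Dixon's test. By chance the test flags about 1 of 20 groups, so 2 of 37 is near the chance rate. The 2 were Krt14 at 2519 CPM and Rps18-ps3 at 4.57 CPM, both the highest value and both from day 6.

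The tumor-normal difference departed between gated and other columnar cells, by the interaction test, for the 12 genes named here. In the strict gate 7 of them, Prss30, Tat, Ang4, Pla2g2a, Pla2g2f, Rasd2 and Bcas1, did not pass (adjusted p between 0.105 and 0.674, edgeR). Prss30 and Tat had 0 counts in gated normal cells and Plet1 had 0 in the other columnar normal cells, so their log2 values give no size. Ang4, Pla2g2a and Pla2g2f stood at 1.19, 0.398 and 1.59 CPM in the other columnar normal cells, so the sizes of their differences rest on few counts. The log2 difference of the differences was positive for Prss30 (9.97), Tat (9.74), Cyp2d12 (5.45), Aqp8 (5.29), Car4 (5.04) and Saa1, an acute phase protein (4.65). Saa1 stood at 165, 175, 103 and 777 CPM against 88.9 CPM in gated cells and at 99.2, 48.4, 114 and 911 CPM against 1384 CPM in other columnar cells. It was negative for Plet1 (-9.95), Ang4 (-5.35), Pla2g2a (-4.80), Pla2g2f (-4.04), Rasd2 (-4.03) and Bcas1 (-3.72). Plet1, a surface protein of progenitor and repairing epithelium, stood at 28.3, 33.3, 76.3 and 370 CPM in other columnar tumor cells against 0 in normal ones, and at 46.0, 158, 96.9 and 362 CPM against 96.4 CPM in gated cells.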

How the results depend on the processing

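No paired analysis was possible because the tumor and normal libraries share no replicate number that ties them together. For tumor against normal (80 genes), the count was 217 without a filter on low counts, 388 with DESeq2, 0 with the dual index libraries alone, 135 without cells carrying other types' markers or Krt5 plus Krt14, 38 with cells thinned to 1000 UMIs, and 8 to 273 with 1 tumor library left out. For the interaction (39) it was 148, 23, 8 at the strict gate, 70 without those marker-carrying cells, 107 thinned, 338 without cells above 2 times the median depth, and 1 to 203 with 1 library left out. For gated against other columnar cells (101) it was 325 without the filter, 364 at the strict gate, 52 without marker-carrying cells, 50 without the deepest cells, 706 at 200 per 10000, and 12 to 124 with 1 library left out. For late against early (0) it was 334 without the filter, 88 with DESeq2, 2 thinned, 278 with library structure as a block, and 0 to 68 with 1 library left out.

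The share of gated cells, in the usual order of libraries, was 33.2%, 3.58%, 5.57%, 3.68% and 5.02% at the strict gate, and 4.14%, 0.874%, 1.83%, 1.49% and 2.56% at 200 per 10000. In the tumor libraries it was 39.3%, 6.74%, 11.0% and 2.51% without marker-carrying cells and 48.0%, 5.70%, 9.94% and 8.63% thinned. The tumor-normal log2 fold change turned to 0.13 for Agr2 and -1.31 for Ang4 at 200 per 10000, where the interaction of Pla2g2a took 2.80 from 0 counts in normal gated cells and so carries no direction. Reg4, at 0.00, took -0.004 with DESeq2 size factors, -0.0041 with DESeq2, -0.35 to 0.20 with 1 library left out, -0.16 with dual index libraries alone, -0.048 without marker-carrying cells, -0.63 thinned and -0.94 without the deepest cells. The causes were not tested. Of the values of named genes under an alternative for tumor against normal, 462 kept direction and side of the threshold, 132 no longer passed it, 13 newly passed it and 9 changed sign. Scaling by total UMIs shifted the median of all genes by -0.18 in the interaction and -0.19 in late against early. The normal sum of 799888 UMIs puts genes under 3.75 CPM there below 3 counts. The gates at 200 per 10000 were added after the data were seen.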
